A study of Homo sapiens with 40 samples.

Results

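TXNIP encodes a protein that binds thioredoxin and whose mRNA is a widely used readout of glucose inside the cell. It was described here together with its arrestin domain relatives ARRDC1, ARRDC2, ARRDC3 and ARRDC4, and with MLXIP and MLX, which encode the transcription factor MondoA and its partner. The 7 genes were chosen by name, with earlier results of these data in view, and every probe set that carried 1 of these symbols alone was taken. That gave 18 probe sets of the 41091 with exactly 1 gene symbol, for 7 of 19775 genes: 3 for TXNIP, 2 for ARRDC1, 1 each for ARRDC2, ARRDC3 and ARRDC4, 4 for MLXIP and 6 for MLX. Because the genes were chosen this way, their differences are given as a description with their error, without p-values.

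All samples were A2058, an established human melanoma cell line, grown in high-glucose medium with serum, pyruvate and glutamine and exposed once, for 24 h, to an inhibitor of phosphoinositide 3-kinase (PI3K) or to the solvent DMSO alone. The labels name 3 levels of each compound: IC30, IC50 and IC90 (max) of BKM120, and IC50, IC90 and max of BEZ235 and of GDC0941, which some labels spell GCD0941. BKM120 (buparlisib) and GDC0941 (pictilisib) inhibit class I PI3K, and BEZ235 (dactolisib) inhibits both PI3K and mTOR. Each of the 10 groups had 4 biological replicates, so that 40 one-colour arrays were compared, and all of them come from a single line. Neither the molar concentrations nor the response behind the IC levels is given in the sources used here, so levels of the same name in different compounds are matched by name alone. The labels do not say what separated the biological replicates, so the errors measure the spread between these samples.

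As background, TXNIP and the ARRDC proteins are alpha-arrestins, adaptors that bind membrane proteins and recruit NEDD4 family ubiquitin ligases to them. TXNIP also holds back thioredoxin and drives glucose transporters from the cell surface, and ARRDC4 is known to act on glucose uptake in a similar way. MondoA pairs with MLX, responds to phosphorylated hexoses inside the cell, and binds carbohydrate response elements, which are E-box-like sequences found upstream of TXNIP and ARRDC4. mTOR has been reported to bind MondoA and to limit its pairing with MLX, and PI3K signalling through AKT restrains the FOXO transcription factors.

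Signals were linear MAS5 intensities, scaled by the authors so that the mean of each array without its extreme 2% at either end was 150.0. Levels below are given in these units, and differences are on the log2(signal + 16) scale, on which changes of dim probe sets are understated. Levels of different probe sets cannot be set against each other. One array, replicate 3 of BEZ235 at IC50, stood apart in RNA quality: its ratio of 3' to 5' signal was 3.44 for GAPDH and 27.2 for ACTB, against 1.05 to 1.26 and 1.58 to 2.33 in the other 39 arrays. Its median correlation with the arrays of its group was 0.947, against 0.992 or more elsewhere. Most differences that rest on this array, and the counts of calls against DMSO, are given with and without it. The orders of group means, the correlations over group means and the main counts between compounds include it. Of 8 melanoma marker genes, the 7 on the array had summed signals of 7027.1 to 7456.0 in DMSO and 7842.7 to 11230.2 in treated arrays. The summed signals of the leukocyte (PTPRC and CD3E), endothelial and epithelial markers stayed at or below 32.1 in every array. CD68, also on the leukocyte list, had no probe set under its symbol alone and is not in the sum. The fibroblast list summed to 796.5 to 1639.8, nearly all of it LUM (mean signal 1193), with COL1A1 at 34.5 and DCN at 45.2. The part of these markers in the results was not tested.

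The upstream sequences of TXNIP and ARRDC4, known as direct MondoA targets, are shown first, with the motifs that were searched for in all 7 genes. All 7 genes matched RefSeq promoter entries (GRCh38.p14), with 10 start sites in all, and the 250 bases before each start were searched on both strands. The motifs were the E-box CACGTG, the spaced pair of E-box-like letters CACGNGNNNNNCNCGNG of a carbohydrate response element (an E-box can form either end of the pair), and the FOXO core GTAAACA. Over 35116 promoter windows of this length, 6.34% held the E-box, 0.424% the spaced pair and 2.98% the FOXO core. In the 2 sequences below, of the upstream windows of TXNIP (chr1:145996580-145996829, minus strand) and ARRDC4 (chr15:97960453-97960702, plus strand), capitals mark the matches.
TXNIP: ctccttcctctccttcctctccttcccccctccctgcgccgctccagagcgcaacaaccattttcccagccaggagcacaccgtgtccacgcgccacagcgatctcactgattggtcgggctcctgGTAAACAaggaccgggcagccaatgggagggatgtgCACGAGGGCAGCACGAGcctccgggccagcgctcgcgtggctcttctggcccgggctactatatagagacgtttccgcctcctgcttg
ARRDC4: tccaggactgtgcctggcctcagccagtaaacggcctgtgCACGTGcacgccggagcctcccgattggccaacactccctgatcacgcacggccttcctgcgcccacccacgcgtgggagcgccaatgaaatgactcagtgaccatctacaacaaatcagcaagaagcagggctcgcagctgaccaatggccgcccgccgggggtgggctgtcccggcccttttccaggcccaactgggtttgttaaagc
The TXNIP window held the spaced pair as CACGAGGGCAGCACGAG, from 88 to 72 bases before the start, and a FOXO core from 124 to 118 bases before it. ARRDC4 held an E-box from 210 to 205 bases before its start. MLX also held an E-box, 50 to 45 bases before its start. The only other match among the 10 starts was a FOXO core on the opposite strand, 29 to 23 bases before the second start of ARRDC3, printed here because ARRDC3 differed from TXNIP in its pattern (chr5:91380109-91380137, minus strand).
ARRDC3, second start: agcccggcactTGTTTACcacggcgcggc
ARRDC1, ARRDC2 and MLXIP held none of the 3 motifs in these windows. A match is only a description of letters, and a window without one says nothing about the factor.

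TXNIP was higher than in DMSO under all 9 treatments, and most under BEZ235. The probe set with its highest mean signal, 201010_s_at, read 300.8, 316.6, 301.0 and 300.5 in the 4 DMSO arrays. All 36 treated arrays lay above the highest DMSO array. In bulk RNA, more cells with a transcript and more transcript in each cell cannot be told apart.

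Under BKM120, TXNIP stood at overlapping levels at IC30 and IC50 and far higher at IC90 (max). At IC30 the arrays read 420.4, 425.8, 387.4 and 468.9, and at IC50 they read 408.4, 391.1, 452.8 and 436.3. At IC90 (max) they read 984.3, 957.8, 1039.5 and 983.8. The groups at IC30 and IC50 overlapped, and no array of either came near the group at IC90 (max). The log2 differences from DMSO were 0.46 (95% interval 0.35 to 0.57), 0.45 (0.34 to 0.56) and 1.65 (1.54 to 1.76), each with an SE of 0.055, and the last is 3.14-fold.

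BEZ235 gave the highest TXNIP signals of the study. The arrays read 884.2, 957.2, 856.0 and 924.3 at IC50, 1449.4, 1412.9, 1464.4 and 1486.2 at IC90, and 1572.3, 1582.0, 1529.0 and 1604.8 at max. The third value at IC50 belongs to the array with degraded RNA and lay close to the rest of its group on this probe set. Differences from DMSO were 1.52 at IC50 (1.41 to 1.63; 1.55 without that array), 2.20 at IC90 (2.08 to 2.31) and 2.31 at max (2.20 to 2.42). The last 2 are 4.58-fold and 4.95-fold, and the 4 arrays at max all lay above the 4 at IC90.

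Under GDC0941, TXNIP stood higher at each level than at the one before. The arrays read 366.5, 362.2, 372.0 and 338.2 at IC50, 573.2, 612.2, 588.8 and 576.7 at IC90, and 1052.2, 886.2, 1048.7 and 927.2 at max. No array of one level overlapped with another level. The differences from DMSO were 0.23 (0.12 to 0.34), 0.91 (0.80 to 1.02) and 1.63 (1.52 to 1.74), or 1.17-fold, 1.88-fold and 3.09-fold.

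Ordered by their mean log2 level, the groups ran from DMSO (8.32) through GDC0941 IC50 (8.55), BKM120 IC50 (8.77), BKM120 IC30 (8.78), GDC0941 IC90 (9.24), BEZ235 IC50 (9.85), GDC0941 max (9.95), BKM120 IC90 (max) (9.98) and BEZ235 IC90 (10.52) to BEZ235 max (10.63). Neighbours in this order did not overlap, with 2 exceptions: BKM120 IC50 with IC30, and the run of BEZ235 IC50, GDC0941 max and BKM120 IC90 (max). SDs over the 4 arrays were between 0.029 and 0.12 in every group.

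**Figure D1:**
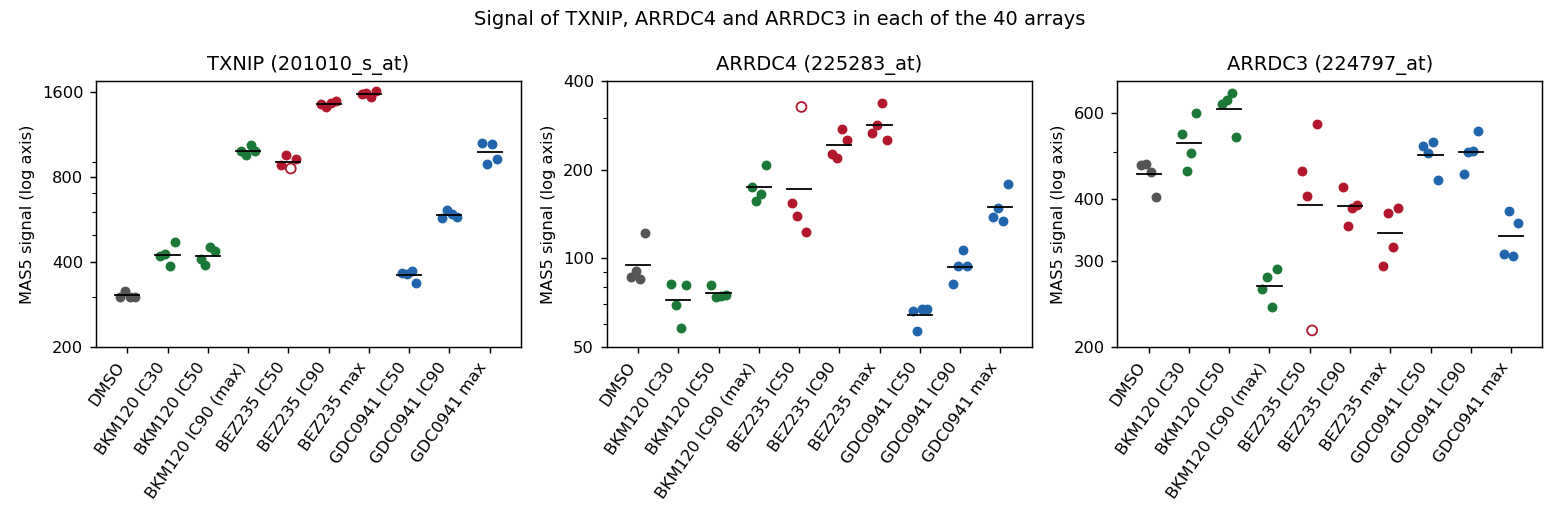
Each point is the MAS5 signal of 1 array on a log axis, for TXNIP, ARRDC4 and ARRDC3 in the 10 groups (DMSO grey, BKM120 green, BEZ235 red, GDC0941 blue), and the bar is the group mean taken on the log2(signal + 16) scale. The open circle is the array with degraded RNA, at 856.0 for TXNIP, 326.7 for ARRDC4 and 216.3 for ARRDC3. TXNIP points of every treatment sit above the DMSO points, while ARRDC4 dips below them at 3 of the lower levels.

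The other 2 TXNIP probe sets, which read the same transcript and are no independent evidence, gave differences of the same sign under every treatment. On 201008_s_at the DMSO arrays read 159.7, 150.3, 141.4 and 176.1, and the BEZ235 max arrays 1055.5, 1105.2, 1088.8 and 1139.0, a difference of 2.69 (1.99 to 3.39). On 201009_s_at the DMSO arrays read 120.7, 116.7, 125.0 and 125.5, and the BEZ235 max arrays 864.4, 870.3, 833.3 and 881.2, a difference of 2.67 (2.31 to 3.03). Every treated array but 1 lay above all DMSO arrays on these probe sets too. The exception was the array with degraded RNA on 201008_s_at, at 41.8 beside 550.6, 558.5 and 624.4 in its group. On 201009_s_at that array read 136.9 beside 445.7, 442.3 and 500.4.

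That single array set the error of both probe sets. With it, the difference at BEZ235 IC50 was 0.94 on 201008_s_at and 1.38 on 201009_s_at. Without it, the differences were 1.78 (1.65 to 1.91) and 1.79 (1.66 to 1.92). The SE of each difference of 201008_s_at from DMSO was 0.35 over 40 arrays and about 0.06 (0.059 to 0.064) over 39. The smallest effects on these probe sets, at GDC0941 IC50, were 0.27 and 0.26, with all 4 arrays above DMSO on both.

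**Figure D2:**
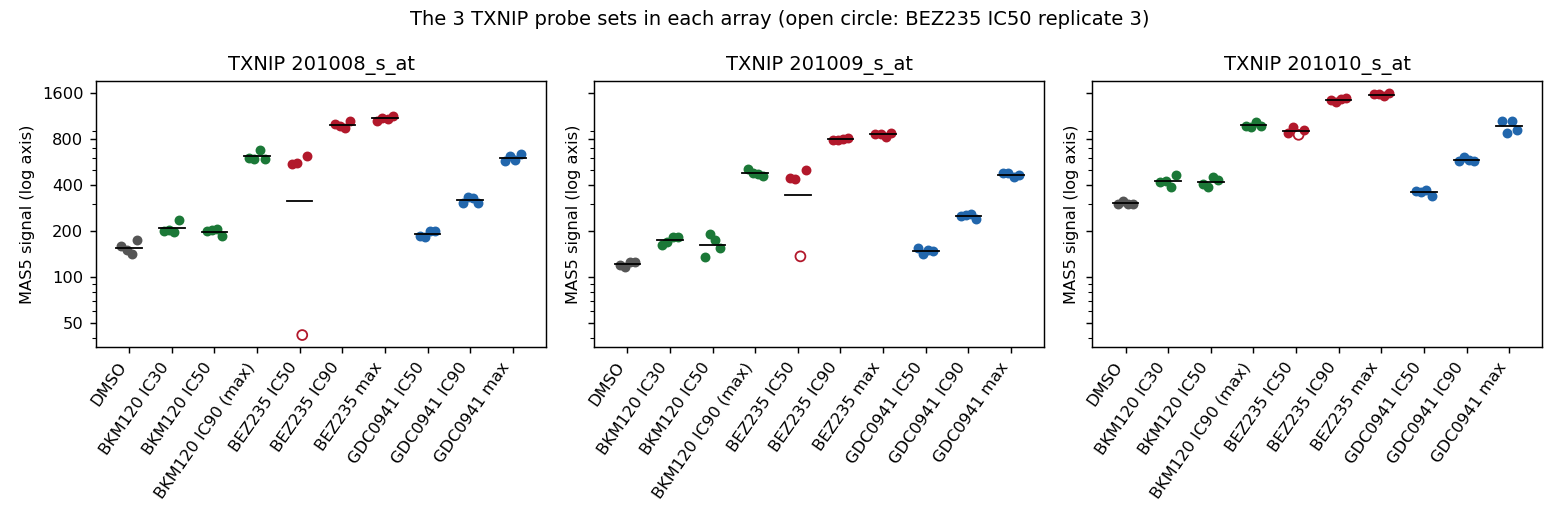
Signals of the 3 TXNIP probe sets in each array on a shared log axis, with bars at the group means taken on the log2(signal + 16) scale. The open circle, replicate 3 of BEZ235 at IC50, drops to 41.8 and 136.9 on the left and middle probe sets and stays at 856.0 on the right one.

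ARRDC4, the other gene of the family known as a direct MondoA target, went both ways. It was higher than DMSO under all BEZ235 levels and the top levels of the other compounds, and lower under BKM120 IC30 and IC50 and GDC0941 IC50. The DMSO arrays read 86.3, 90.7, 85.1 and 122.0. The BEZ235 max arrays read 265.5, 282.9, 336.0 and 253.0, or 2.69-fold higher (log2 difference 1.43, 1.11 to 1.75, SE 0.16). The groups did not overlap.

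At the lower levels every ARRDC4 array lay below every DMSO array. BKM120 IC30 read 82.0, 69.7, 58.1 and 81.5, a difference of -0.33 (-0.65 to -0.01). BKM120 IC50 read 81.1, 73.9, 74.5 and 74.9, a difference of -0.27 (-0.59 to 0.05). GDC0941 IC50 read 66.3, 56.5, 67.6 and 67.6, a difference of -0.47 (-0.79 to -0.15). In the same groups TXNIP was higher than DMSO by 0.46, 0.45 and 0.23. None of these 3 ARRDC4 differences was called, that is, past an adjusted p of 0.05 over all probe sets, in the fit of 40 arrays. Over 39 arrays those at BKM120 IC30 and GDC0941 IC50 were called, with the same values and narrower intervals (-0.54 to -0.12 and -0.68 to -0.25).

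ARRDC4 at GDC0941 IC90 overlapped with DMSO, at 81.7, 94.1, 106.6 and 94.1 (-0.02, interval -0.34 to 0.30). At GDC0941 max it read 137.8, 148.5, 134.1 and 178.9 (0.57, 0.25 to 0.89), and at BKM120 IC90 (max) 174.1, 157.0, 165.1 and 207.7 (0.78, 0.46 to 1.10). BEZ235 IC50 read 153.8, 139.0, 326.7 and 123.2, where the high value is the array with degraded RNA. The difference there was 0.76 with that array and 0.47 (0.24 to 0.70) without it. BEZ235 IC90 read 225.8, 219.3, 274.6 and 253.1 (1.22, 0.90 to 1.54).

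In order of mean log2 level, ARRDC4 ran from GDC0941 IC50 (6.33), BKM120 IC30 (6.46) and BKM120 IC50 (6.52), which overlapped, to GDC0941 IC90 (6.78) and DMSO (6.80), which overlapped. GDC0941 max (7.37), BEZ235 IC50 (7.56) and BKM120 IC90 (max) (7.58) came next and overlapped, followed by BEZ235 IC90 (8.01) and BEZ235 max (8.22), which overlapped. Where one of these 4 sets of groups met the next in the order, the adjacent groups did not overlap. Without the array with degraded RNA, BEZ235 IC50 stood 0.47 above DMSO, below the 0.57 of GDC0941 max.

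ARRDC3, an alpha-arrestin known for sorting beta-adrenergic receptors and integrin beta 4, was lower than in DMSO at the highest level of each compound, where TXNIP was higher. The DMSO arrays read 470.6, 472.7, 454.0 and 405.1. At BKM120 IC90 (max) the arrays read 262.4, 277.8, 240.9 and 289.0, all below DMSO, a difference of -0.72 (-1.01 to -0.43, SE 0.14). GDC0941 max read 309.6, 378.2, 306.5 and 357.5 (-0.40, -0.70 to -0.11), and BEZ235 max 293.2, 375.0, 319.2 and 384.0 (-0.38, -0.68 to -0.09). In these 3 groups no array reached the lowest DMSO array, and all 3 differences were called. Leaving out DMSO replicate 1, 2 or 3 in turn ended the calls at BEZ235 max and GDC0941 max, as did leaving out replicate 1 or 3 of either treated group, and replicate 4 of GDC0941 max. With 1 array of DMSO or of the treated group left out at a time, the differences ran from -0.44 to -0.32 at BEZ235 max and from -0.46 to -0.36 at GDC0941 max. Without the array with degraded RNA both differences were the same and still called, with intervals of -0.57 to -0.20 and -0.59 to -0.21 (SE 0.093 in place of 0.14).

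At the lower levels of BKM120, ARRDC3 was higher than in DMSO. At IC50 the arrays read 624.0, 636.0, 658.7 and 535.1, all above DMSO, with a difference of 0.43 (0.14 to 0.72), which was called over 39 arrays and not over 40. At IC30 they read 542.8, 455.7, 497.0 and 598.4 (0.20, -0.09 to 0.50) and overlapped with DMSO. Between BKM120 IC50 and IC90 (max) the gene went from its highest to its lowest group mean, 9.29 to 8.14.

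Under BEZ235 and GDC0941 the other levels of ARRDC3 overlapped with DMSO. BEZ235 IC50 read 457.7, 405.5, 216.3 and 570.0, where the low value is the array with degraded RNA. The difference was -0.20 with it and 0.07 (-0.13 to 0.28) without it. BEZ235 IC90 read 423.5, 353.2, 384.5 and 389.5 (-0.21, -0.50 to 0.08). GDC0941 IC50 read 514.5, 498.1, 523.7 and 437.3 (0.13), and GDC0941 IC90 450.7, 498.6, 502.4 and 549.8 (0.15).

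ARRDC2 and ARRDC1 gave small differences at dim signals. ARRDC2, a less studied alpha-arrestin, read 19.7, 26.2, 25.3 and 29.5 in DMSO and 59.1, 51.5, 50.9 and 45.8 at BEZ235 max, which did not overlap (0.72, 0.50 to 0.95). Its difference from DMSO was positive under all 9 treatments, from 0.19 at BKM120 IC50 to that value. It was called at all 3 BEZ235 levels, at BKM120 IC90 (max) (0.34) and at GDC0941 max (0.46). The calls at BKM120 IC90 (max) and BEZ235 IC50 were lost without DMSO replicate 1 (the first also without its own replicate 1 or 3, the second without its own replicate 2). Each group overlapped with its neighbour in the order of means.

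ARRDC1, an alpha-arrestin known for the budding of small vesicles from the cell surface, depended on the probe set. On 226405_s_at the DMSO arrays read 20.2, 32.6, 26.5 and 26.7, the BEZ235 IC90 arrays 45.8, 42.4, 47.9 and 44.2, and the BEZ235 max arrays 43.3, 52.4, 37.4 and 49.1. Both BEZ235 groups lay above DMSO without overlap, by 0.53 (0.31 to 0.75) and 0.54 (0.32 to 0.76). At BEZ235 IC50 the difference was 0.31 and called with the array of degraded RNA, and 0.24 and not called without it. On the second ARRDC1 probe set, 234607_at, no difference from DMSO was called, and the 3 BEZ235 values were -0.21, -0.14 and -0.19, opposite in sign.

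**Figure D3:**
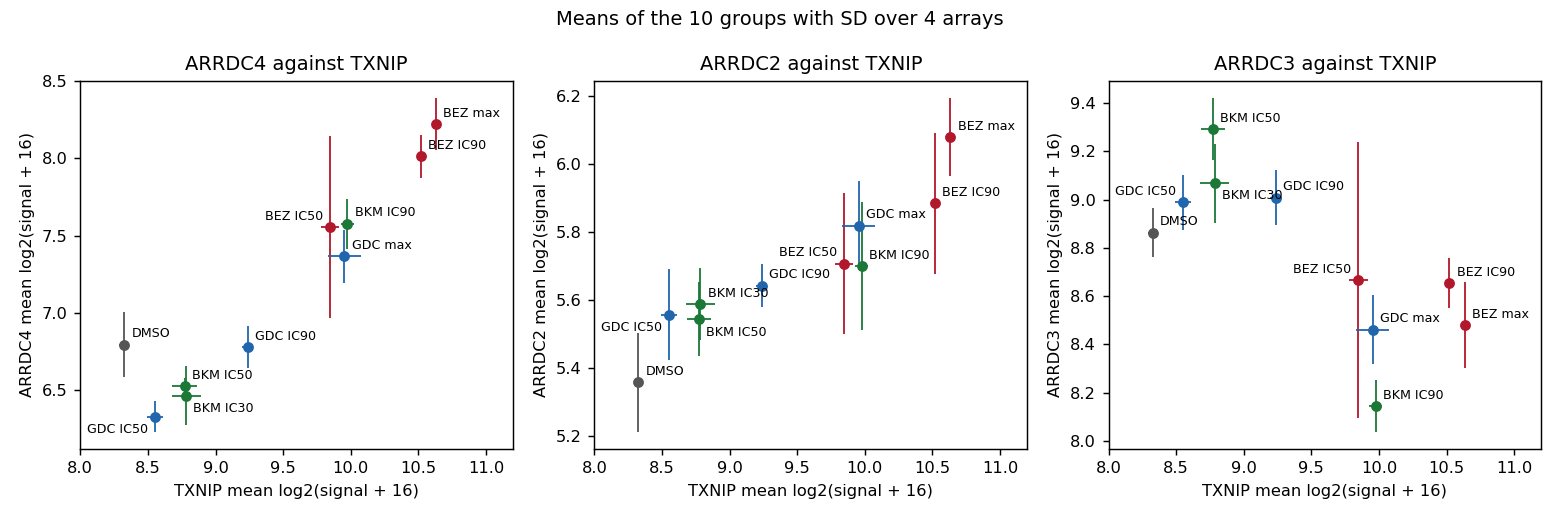
Mean log2(signal + 16) of ARRDC4, ARRDC2 and ARRDC3 against that of TXNIP in the 10 groups, with bars of 1 SD over 4 arrays. ARRDC4 first falls from 6.80 in DMSO to 6.33 at GDC0941 IC50 and then climbs to 8.22 with TXNIP, and ARRDC3 is lowest, at 8.14, at BKM120 IC90 (max).

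Across the 10 group means, which share the same arrays and DMSO level, the Pearson correlation of each gene's brightest probe set with TXNIP 201010_s_at was 0.946 for ARRDC4, 0.933 for ARRDC2, 0.766 for ARRDC1 (226405_s_at), -0.734 for ARRDC3, -0.279 for MLXIP and 0.295 for MLX. The other TXNIP probe sets stood at 0.967 and 0.993. For 3 genes the sign depended on the probe set: ARRDC1 234607_at stood at -0.667, MLXIP 1554886_a_at at 0.440 and MLX 217909_s_at at -0.378. The other probe sets of MLXIP stood at -0.443 and -0.454, and those of MLX between 0.054 and 0.141. These are descriptions of the pattern over 10 points.

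MLXIP and MLX, the factors themselves, moved little. MLXIP (225157_at) read 607.0, 544.6, 664.7 and 563.2 in DMSO and 617.3, 542.2, 631.5 and 535.0 at BEZ235 max, where TXNIP was highest (-0.03, -0.19 to 0.13). Its differences from DMSO ranged from -0.04 at BEZ235 IC50 to 0.23 at GDC0941 IC90 (0.07 to 0.39), and arrays of every treatment overlapped with DMSO. No difference of any of the 4 MLXIP probe sets from DMSO was called over 40 arrays. Over 39 arrays the one at GDC0941 IC90 was called on 225157_at, with the same 0.23. The MLXIP probe sets 1554886_a_at and 211789_s_at were dim, below the 40th percentile of mean signal.

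MLX (213708_s_at) read 1592.3, 1446.2, 1680.2 and 1572.4 in DMSO, and its differences lay between -0.10 at GDC0941 max and 0.20 at BEZ235 IC50. The arrays at BEZ235 IC50 read 1639.3, 1770.2, 2218.9 and 1641.4, of which the highest is the array with degraded RNA. Without it the difference was 0.10 (-0.01 to 0.20) and not called. At BEZ235 max the arrays read 1815.2, 1684.2, 1777.3 and 1744.3, all above DMSO by a small margin (0.16, 0.03 to 0.29).

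The 6 MLX probe sets did not agree in size or always in sign. At GDC0941 max, 210752_s_at stood at -0.32 (-0.44 to -0.20), 217909_s_at at -0.29 (-0.46 to -0.11) and 217910_x_at at -0.20 (-0.32 to -0.07), each with all arrays below DMSO. At BKM120 IC90 (max), 210752_s_at stood at -0.22 and 217909_s_at at -0.38, again with all arrays below DMSO. At BEZ235 max, 210752_s_at stood at 0.18 and 217909_s_at at -0.02. The probe set 1570347_at was too dim to tell, with a mean signal of 1.91.

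**Figure D4:**
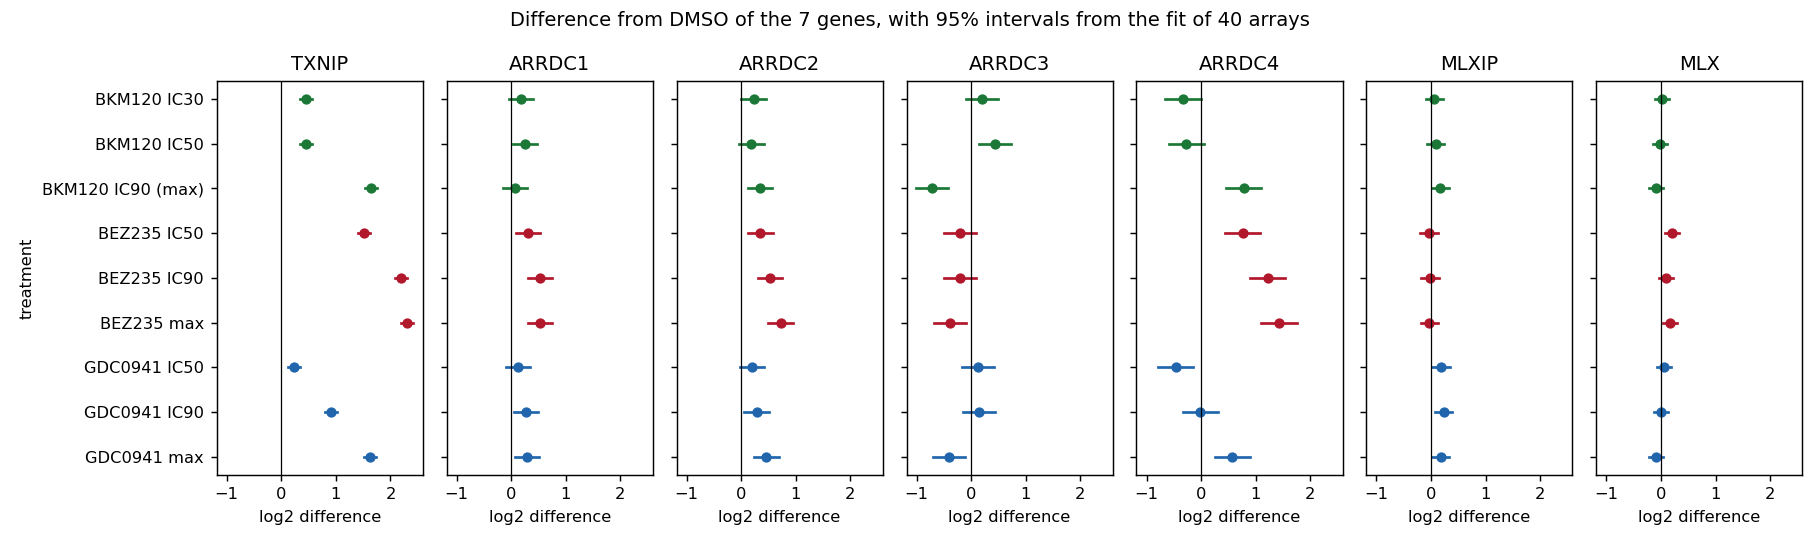
Log2 difference of each treatment from DMSO for the 7 genes, each on its probe set with the highest mean signal, with 95% intervals from the fit of 40 arrays. TXNIP runs from 0.23 to 2.31 and ARRDC4 from -0.47 to 1.43, while MLXIP stays between -0.04 and 0.23 and MLX between -0.10 and 0.20.

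The compounds were compared in 6 pairs at levels of the same name, with BKM120 IC90 (max) taken as its IC90. That is also the top level of BKM120, so the pairs at IC90 set it against the middle level of the others. BKM120 IC90 (max) overlapped with GDC0941 max in TXNIP (mean log2 level 9.98 against 9.95) and ARRDC4 (7.58 against 7.37). TXNIP was highest under BEZ235 at both levels. At IC50, BKM120 minus BEZ235 was -1.07 (-1.18 to -0.96) and BEZ235 exceeded GDC0941 by 1.29 (1.18 to 1.41). At IC90, BKM120 minus BEZ235 was -0.54 (-0.66 to -0.43) and BEZ235 exceeded GDC0941 by 1.28 (1.17 to 1.39). The arrays of these groups did not overlap. On 201010_s_at, BKM120 exceeded GDC0941 by 0.22 at IC50 (0.11 to 0.33) and by 0.74 at IC90 (0.63 to 0.85). In both cases every BKM120 array lay above, but the difference at IC50 was not called over 40 arrays. On 201008_s_at and 201009_s_at the difference at IC50 was 0.045 and 0.12, with overlapping arrays. At IC90 every BKM120 array lay above on these probe sets too.

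ARRDC4 differed between BEZ235 and the other compounds at IC50 in direction as well as size. It lay above DMSO under BEZ235 and below it under BKM120 and GDC0941, with BKM120 minus BEZ235 at -1.03 (-1.35 to -0.71) and BEZ235 minus GDC0941 at 1.23 (0.91 to 1.55). Without the array with degraded RNA these were -0.74 (-0.97 to -0.51) and 0.94 (0.71 to 1.17). BKM120 and GDC0941 at IC50 were not told apart, at 0.20 with an interval of -0.13 to 0.52. At IC90 BKM120 minus BEZ235 was -0.43 (-0.76 to -0.11), BKM120 minus GDC0941 0.80 (0.48 to 1.12) and BEZ235 minus GDC0941 1.23 (0.91 to 1.56).

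ARRDC3 had its lowest group mean at the top level of BKM120. BKM120 IC90 (max) was lower than both others at IC90, with BKM120 minus BEZ235 at -0.51 (-0.80 to -0.22) and BKM120 minus GDC0941 at -0.86 (-1.16 to -0.57). Beside their max levels it was closer but still lower without overlap, at a mean log2 level of 8.14 against 8.48 (BEZ235) and 8.46 (GDC0941). The nearest arrays read 289.0 under BKM120 and 293.2 under BEZ235 max, and differences between these top levels were not fitted. At IC50 BKM120 stood above BEZ235 by 0.63 (0.33 to 0.92), or by 0.36 (0.16 to 0.56) without the array with degraded RNA, and above GDC0941 by 0.30 (0.01 to 0.60). For ARRDC2, no pair of compounds differed by a called amount, and the widest difference was 0.24 (0.02 to 0.47) for BEZ235 minus GDC0941 at IC90. MLXIP was lower under BEZ235 than under GDC0941 at IC50 (-0.22, -0.38 to -0.06) and IC90 (-0.25, -0.41 to -0.09), and MLX lower under BKM120 than under BEZ235 at IC50 (-0.22, -0.35 to -0.09) and IC90 (-0.19, -0.31 to -0.06). The MLX difference at IC50 was -0.12 (-0.23 to -0.02) and not called without the array with degraded RNA.

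Counts of the 18 probe sets past an adjusted p of 0.05 are given beside the share of all 41091 probe sets past it, and nothing is read from them, since the genes were chosen with these contrasts known. Under BKM120, 1 was higher at IC30 (background 8.04%), 1 was higher at IC50 (7.72%), and 5 were higher and 3 lower at IC90 (max) (18.5%). Under BEZ235, 7 were higher at IC50 (23.0%), 6 were higher at IC90 (29.1%), and 7 were higher and 1 lower at max (31.2%). Under GDC0941, 1 was higher at IC50 (5.88%), 2 were higher at IC90 (11.0%), and 5 were higher and 4 lower at max (22.1%). The lower ones at the top levels were ARRDC3 and, for BKM120 and GDC0941, MLX probe sets. Of the 18, 15 lay above the 40th percentile of mean signal. The median difference of the 18 was 0.04 at BKM120 IC90 (max), 0.10 at BEZ235 max and 0.01 at GDC0941 max, against 0.00, 0.00 and 0.01 over all probe sets.

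Without the array with degraded RNA, the counts of higher and lower probe sets and the background were 3, 1 and 12.7% at BKM120 IC30, 4, 0 and 13.0% at IC50, and 5, 4 and 24.4% at IC90 (max). For BEZ235 they were 5, 0 and 21.6% at IC50, 6, 0 and 34.6% at IC90, and 8, 1 and 35.9% at max. For GDC0941 they were 3, 1 and 9.89% at IC50, 4, 1 and 16.2% at IC90, and 6, 4 and 27.7% at max.

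Between compounds at IC50, 1 of the 18 was higher and 4 were lower under BKM120 than under BEZ235 (background 14.2%), none was called between BKM120 and GDC0941 (0.0949%, or 39 probe sets in all), and 3 were higher and 2 lower under BEZ235 than under GDC0941 (15.9%). At IC90, 1 was higher and 8 were lower under BKM120 than under BEZ235 (24.2%), 3 were higher and 2 lower under BKM120 than under GDC0941 (16.3%), and 5 were higher and 2 lower under BEZ235 than under GDC0941 (21.1%).

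Of 1008 genes above the 40th percentile whose group means spanned at least 1 log2 unit, those most like TXNIP over the 10 group means were SCN2A, a sodium channel gene (r = 0.986), ZC3H6, a zinc finger gene (0.983), the kinase gene PIM1 (0.983), TRIM66 (0.983), ZNF185 (0.981) and KLHDC1 (0.981). At BEZ235 max they stood above DMSO by 1.05, 1.35, 1.38, 1.06, 1.06 and 1.32, in that order. The most opposite were KCNG4, a potassium channel subunit gene (-0.990, at -2.22), and LIN28B, which encodes a repressor of let-7 microRNAs (-0.988, at -1.03). The likeness is over 10 points that share their arrays, and the genes were picked for it.

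Related genes were taken from 6 lists, each gene on its probe set with the highest mean signal, at the highest level of each compound. On that basis 19.6% of all 19775 genes were called at BKM120 IC90 (max), 35.7% at BEZ235 max and 25.3% at GDC0941 max, with median differences of 0.00, 0.02 and 0.02. The lists were chosen with earlier results of these data known, and genes were named from them for their large differences. The limma adjusted p-values printed for them are therefore a description and no independent support.

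The other genes known to respond to glucose through MondoA or its relative ChREBP moved in both directions. Of 21 on the array (of 22), 1 rose and 4 fell at BKM120 IC90 (max), 4 rose and 7 fell at BEZ235 max, and 6 rose and 1 fell at GDC0941 max, with medians of -0.09, -0.14 and 0.05. KLF10, a transcription factor gene, rose by 1.01 at BEZ235 max (SE 0.090, limma adjusted p = 1.3e-11) and by 0.28 at BKM120 IC90 (max) (limma adjusted p = 0.024). HK2, the hexokinase that phosphorylates glucose in many tumour cells, fell by 0.58, fell by 0.52 and fell by 0.43 in the order BKM120, BEZ235, GDC0941 (SE 0.083, adjusted p at most 1.1e-04).

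ELOVL6, which lengthens fatty acids, fell by 1.02 at BEZ235 max (adjusted p = 8.5e-14) and fell by 0.24 at BKM120 IC90 (max). ACACA, the rate-limiting enzyme of fatty acid synthesis, fell by 0.53 at BEZ235 max (adjusted p = 9.9e-07) and fell by 0.37 at BKM120 IC90 (max). RGS16, a regulator of G protein signalling, fell by 0.43 at BKM120 IC90 (max) (adjusted p = 0.022). PNPLA3, a lipid droplet protein gene, rose by 0.72 at GDC0941 max (adjusted p = 8.4e-07) and fell by 0.36 at BEZ235 max (adjusted p = 0.0050). PFKFB2, which makes the activator of phosphofructokinase, rose by 0.60 at BEZ235 max and 0.71 at GDC0941 max, and KHK, the fructose kinase gene, by 0.68 and 0.58.

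Among genes for glucose uptake and its first steps, more list members were called lower than higher at these levels. Of 13 on the array (of 14, HK2 also being in the list above), 1 rose and 6 fell at BKM120 IC90 (max), 1 rose and 7 fell at BEZ235 max, and 1 rose and 5 fell at GDC0941 max. Their medians were -0.20, -0.28 and -0.19. SLC2A1, the main glucose transporter of many cells, fell by 0.88 at BEZ235 max (SE 0.14, adjusted p = 2.6e-06) and fell by 1.16 at GDC0941 max (adjusted p = 2.4e-08). SLC2A6, a lysosomal transporter gene, fell by 1.03 at BEZ235 max and fell by 0.50 at BKM120 IC90 (max). SLC2A13, the proton and myo-inositol transporter gene, fell by 0.53 and fell by 0.64 in the same groups. HK1 fell by 0.29, fell by 0.39 and fell by 0.43 in the order BKM120, BEZ235, GDC0941. The gene that rose was SLC2A10, by 0.45, 0.77 and 0.81 in that order, at a dim mean log2 signal of 4.60 in DMSO.

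**Figure D5:**
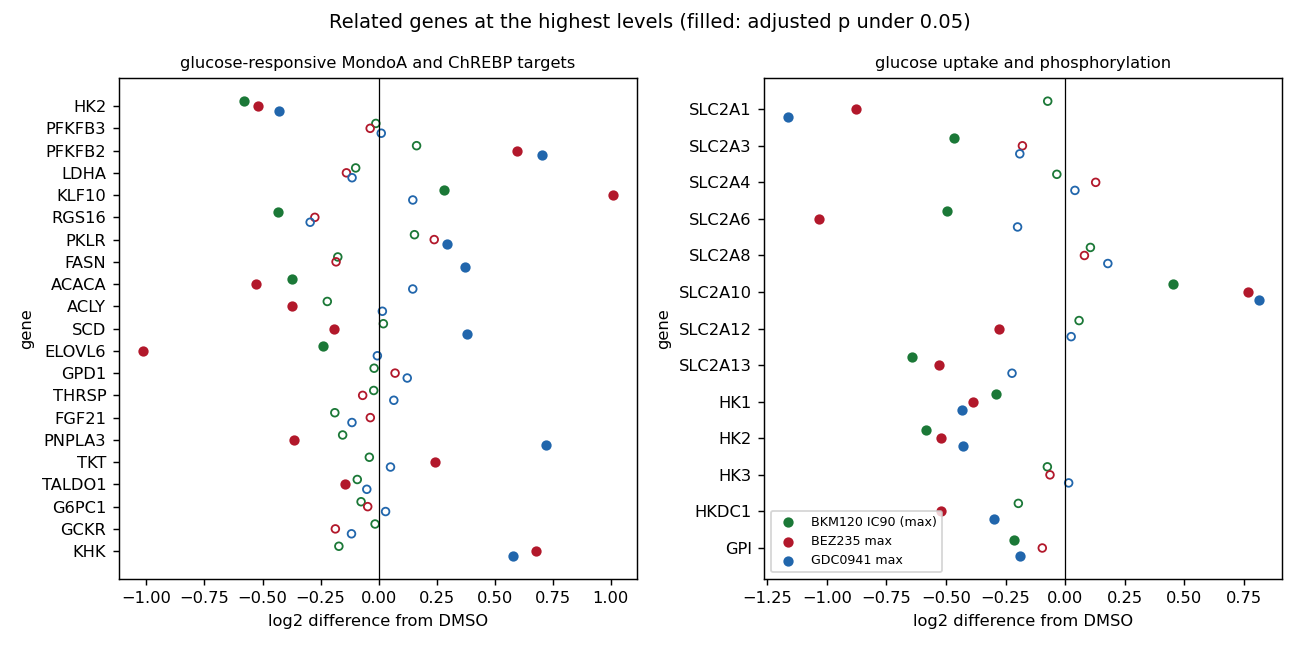
Log2 difference from DMSO at the highest level of each compound (BKM120 green, BEZ235 red, GDC0941 blue) for the glucose-responsive targets of MondoA and ChREBP and for genes of glucose uptake and phosphorylation, with filled points past an adjusted p of 0.05. Points of the left panel lie on both sides of 0, from -1.02 (ELOVL6) to 1.01 (KLF10), and SLC2A10 is the gene on the right panel that lies above 0 with filled points for all 3 compounds.

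In the list for the thioredoxin system, 14 of 16 genes were on the array. TXNIP acts on thioredoxin, but the list also takes in the glutaredoxin genes GLRX and GLRX2. Both are counted among the genes that fell at each of the levels below. At BKM120 IC90 (max) 1 rose and 3 fell, at BEZ235 max 2 rose and 5 fell, and at GDC0941 max 0 rose and 4 fell, with medians of -0.03, -0.05 and -0.01. GLRX2, the mitochondrial glutaredoxin gene, fell by 0.42, fell by 0.54 and fell by 0.50 in the order BKM120, BEZ235, GDC0941 (adjusted p at most 4.9e-06). GLRX, the cytosolic glutaredoxin gene, fell by 0.25, fell by 0.31 and fell by 0.22 in that order, and SRXN1, which repairs peroxiredoxins, fell by 0.26, fell by 0.20 and fell by 0.49. PRDX1, a peroxiredoxin gene, fell by 0.38 at BEZ235 max and fell by 0.13 at GDC0941 max. TXNRD2, the mitochondrial thioredoxin reductase gene, rose by 0.30 at both BKM120 IC90 (max) and BEZ235 max, and TXNL1, a thioredoxin-like gene, rose by 0.20 at BEZ235 max.

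Of the 9 NEDD4 family ubiquitin ligases that alpha-arrestins recruit, 0 rose and 1 fell at BKM120 IC90 (max), 1 rose and 2 fell at BEZ235 max, and 1 rose and 3 fell at GDC0941 max, with medians of 0.02, 0.08 and -0.17. WWP1 fell by 0.30, fell by 0.59 and fell by 0.30 in that order. NEDD4 fell by 0.53 at BEZ235 max (adjusted p = 4.5e-08) and fell by 0.51 at GDC0941 max, and ITCH, a ligase known to ubiquitinate TXNIP, fell by 0.55 at GDC0941 max (adjusted p = 7.3e-07). WWP2 rose by 0.43 at BEZ235 max and 0.50 at GDC0941 max.

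Among the partners of MLX, of which 3 of 4 were on the array, MNT, a repressor of the MYC network, rose by 0.52 at BEZ235 max (adjusted p = 0.0021) and 0.38 at GDC0941 max. MXD1, another repressor, fell by 0.31 at BEZ235 max (adjusted p = 0.0026), and MLXIPL, which encodes ChREBP, was not called at these levels. Of the other genes with an arrestin fold, 6 of 8 were on the array. At BEZ235 max 2 rose and 1 fell, at GDC0941 max 1 rose and 0 fell, and at BKM120 IC90 (max) limma called 0. ARRB1, the beta-arrestin 1 gene, fell by 0.38 at BEZ235 max (adjusted p = 0.0100), and VPS26C, a subunit gene of the retriever complex, rose by 0.22 there and 0.16 at GDC0941 max. VPS26A, a subunit gene of the retromer complex, rose by 0.11 at BEZ235 max (adjusted p = 0.017).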

How the data were processed

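Per the submitters' processing notes, the authors made the deposited intensity values with MAS5, whose version is not given in the sources used here. They are linear and cover 54675 probe sets in 40 arrays. Per the labels' protocols, 50 ng of column-purified total RNA was amplified (NuGEN Ovation) and biotin-labelled.

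The 7 genes and the lists of related genes were chosen with earlier results of these data known. Values were transformed as log2(signal + 16) with no further normalization or filter, and fitted with limma 3.58.1 in R 4.3.3 over all 41091 probe sets with 1 gene symbol (62 controls, 1801 with several symbols and 11727 with none were left out). The model had a mean for each of the 10 groups (30 residual degrees of freedom) and trended moderated variances. There were 15 comparisons: 9 treatments with DMSO and 6 pairs of compounds. P-values were adjusted by Benjamini-Hochberg within each comparison, with a call at 0.05. A gene was represented by whichever probe set was brightest on average.

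Named were the 7 genes with every probe set, up to 3 called genes in each direction of each list and compound with the largest difference (with their values in the other compounds where called), and the 6 genes most like and 2 most opposite to TXNIP. Genes outside that rule are named only as not called. The script was tested on simulated data. Alternatives changed the pseudocount, the filter, the normalization, the arrays in the fit, the probe set of a gene, the replicate block and each replicate left out. The number of arrays, 4 a group, limits the precision. Protein sequences were not analysed here.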

Additional observations from a re-analysis of the deposited data

Results flagged for a closer look

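In 150 groups of 4 arrays (15 probe sets above the 40th percentile, 10 groups each), 10 had an array whose gap to the nearest of the others was too wide for Dixon's 95% critical ratio. Chance flags about 1 group in 20. Of these, 2 were replicate 3 of BEZ235 at IC50, the array with degraded RNA: TXNIP 201008_s_at at 41.8 (the others 550.6 to 624.4) and 201009_s_at at 136.9 (442.3 to 500.4). The other TXNIP arrays were replicate 3 of BKM120 IC90 (max) on 201008_s_at, at 680.9 beside 594.4 to 604.1, and replicate 2 of DMSO on 201010_s_at, at 316.6 beside 300.5 to 301.0.

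For ARRDC4, replicate 1 of BKM120 IC50 read 81.1 beside 73.9 to 74.9, and replicate 2 of GDC0941 IC50 read 56.5 beside 66.3 to 67.6. ARRDC2 read 57.3 in replicate 3 of BEZ235 IC90 beside 38.3 to 39.7. MLXIP 202519_at read 189.2 in replicate 1 of GDC0941 max beside 153.6 to 156.3. MLX 213708_s_at read 1817.3 in replicate 4 of GDC0941 IC50 beside 1571.5 to 1606.6, and MLX 217910_x_at read 1207.9 in replicate 1 of BEZ235 max beside 1133.6 to 1140.8.

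ARRDC4 at IC50 was flagged because every array of BEZ235 lay above every DMSO array while every array of BKM120 and of GDC0941 lay below. The differences were -1.03 for BKM120 minus BEZ235 and 1.23 for BEZ235 minus GDC0941. Without the array with degraded RNA they were -0.74 and 0.94. The lowest BEZ235 IC50 array, at 123.2, lay just above the highest DMSO array, at 122.0.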

How the results depend on the processing

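TXNIP kept its direction in all 15 comparisons under every alternative run, and its difference at BEZ235 max ran from 2.15 (pseudocount 64) to 2.56 (mean over its probe sets), with 2.30 to 2.33 when single replicates were left out. With the mean over its 3 probe sets it was no longer called at BKM120 IC30 (0.44), BKM120 IC50 (0.38) and GDC0941 IC50 (0.25). Over 39 arrays each of the 3 probe sets, taken alone, was called at these levels. BKM120 IC50 against GDC0941 IC50 was called over 39 arrays on 201010_s_at (0.22) and not on the other TXNIP probe sets. MLX at BEZ235 IC50 changed sign with the mean over its probe sets (-0.055). The causes were not tested. The number of the 18 probe sets called moved most at the lower levels. Over 39 arrays it was 4 at BKM120 IC30, 4 at BKM120 IC50, 4 at GDC0941 IC50, 5 at GDC0941 IC90 and 1 for BKM120 against GDC0941 at IC50. With only the arrays of the 2 groups compared, which leaves fewer degrees of freedom, it was 3 at BKM120 IC30, 4 at BKM120 IC50, 4 at GDC0941 IC50, 2 at BEZ235 IC50, 1 for BKM120 against BEZ235 and 2 for BEZ235 against GDC0941 at IC50. With only probe sets above the 40th percentile it was 2 at BKM120 IC50, 2 at GDC0941 IC50 and 4 at GDC0941 IC90. Quantile normalization gave 2 at BKM120 IC50 and 4 at GDC0941 IC90, and a pseudocount of 1 gave 2 at GDC0941 IC50. Leaving out single replicates gave 4 to 7 at BEZ235 IC50, with 4 without DMSO replicate 1 or BEZ235 IC50 replicate 2. The share of all probe sets called can move with the fit too, as from 8.04% to 12.7% at BKM120 IC30 over 39 arrays. It is given above for the 39 arrays against DMSO and not for the other alternatives, so nothing is read from these counts. Related genes called, 16, 33 and 22 at the highest levels of BKM120, BEZ235 and GDC0941, stayed within 1.5 times of these numbers under every alternative run.

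Groups shared replicate numbers, but same-numbered arrays did not deviate together (mean r -0.01 over 180 pairs), and in 0 of 15 comparisons was every pair above 0.1. With a replicate block, TXNIP at BEZ235 max stayed at 2.31 and the counts at BEZ235 max at 8.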
